A study of Mus musculus with 6 samples.

Results

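The enzymes that hydroxylate and crosslink collagen were examined as 10 genes of the deposited count matrix, out of 23107 genes listed. The 10 genes were chosen by name, and each was found once in the matrix: the lysyl oxidases Lox, Loxl1, Loxl2, Loxl3 and Loxl4, the lysyl hydroxylases Plod1, Plod2 and Plod3, and the prolyl hydroxylase subunits P4ha1 and P4ha2. All 10 passed the minimum count and were tested. The RNA came from the aortic valves of outbred mice aged 4 months, in 3 control libraries labelled WT and 3 mutant libraries labelled Acvr1:Nfatc1Cre. In the mutants, Cre expressed from the Nfatc1 gene (the knock-in allele Nfatc1Cre) switched on caAcvr1, a transgene for an Acvr1 receptor that signals continuously. Per the methods of the study, a control could carry the caAcvr1 transgene alone, Nfatc1Cre alone or neither, and the sources used here do not say which of these were sequenced. Nfatc1Cre recombines in the endocardium and cells derived from it, in interstitial cells and at the junction of leaflet and wall, but not in heart or smooth muscle, so that each library also holds RNA of cells without an active transgene. The sex of the mice and any pooling of tissue are not given in the sources used here. P-values therefore measure the spread between these libraries.

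Collagen chains are modified in the endoplasmic reticulum before they fold. Prolyl 4-hydroxylase, made of an alpha subunit (P4ha1, P4ha2 or P4ha3) and the beta subunit P4hb, hydroxylates prolines and so stabilises the triple helix, and the lysyl hydroxylases of the Plod genes hydroxylate lysines that later carry sugars or form crosslinks. After secretion the lysyl oxidases, which are copper enzymes, oxidise lysines and hydroxylysines of collagen and lysines of elastin to aldehydes, and these condense into the covalent crosslinks that give valve leaflets their strength.

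Each control library held 46180667 to 55728852 fragments, and each mutant library 32218345 to 53129462. Counts were scaled for library size with TMM and are given as CPM, the count of a gene per 1000000 counts of its library. Markers of valve interstitial cells and fibroblasts were read in every library, with 9 of 9 genes above 0 and a summed level of 15381 to 16347 CPM in the controls and 13569 to 17814 CPM in the mutants. Cardiac muscle markers, which belong to tissue next to the valve, were also read in every library. In control replicates 1, 2 and 3 their CPM summed to 33073, 12422 and 38244, and in the mutant replicates to 40507, 18674 and 28698. Acvr1 was read at 49.1 to 67.3 CPM in the controls and 49.8 to 57.8 CPM in the mutants, which does not tell the genotypes apart. Whether fragments of the transgene were counted for Acvr1 is not given in the sources used here.

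To compare levels between genes, CPM were divided by the exon length of each gene in kilobases, giving RPKM. Loxl1, a lysyl oxidase known for its part in elastic fibre maintenance, had the highest level of the 10 genes, at 49.6 ± 8.36 RPKM (SD over all 6 libraries), and lay above 92.7% of the genes tested that had a length. P4ha1 followed at 30.4 ± 4.32 RPKM. The lowest of the 10 was Loxl4, at 1.25 ± 0.279 RPKM. Loxl1 lay above P4ha1 in 6 of 6 libraries and their ranges did not meet.

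Below P4ha1 came Plod3 at 22.6 ± 1.60 RPKM and Plod1 at 20.9 ± 1.73 RPKM, whose ranges overlapped, with Plod3 higher in 5 of 6 libraries. P4ha2 stood at 13.2 ± 1.12 RPKM, under Plod1 in every library. Lox at 10.2 ± 6.84 RPKM, Plod2 at 8.96 ± 1.43 RPKM and Loxl3 at 7.91 ± 1.13 RPKM formed a group of neighbours with overlapping ranges, and Lox exceeded Plod2 in 2 of 6 libraries only. Loxl2 stood at 5.38 ± 1.44 RPKM. This level was lower than Loxl3 in each of the 6 libraries although the ranges of these genes met, and its range did not meet that of Loxl4.

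**Figure D1:**
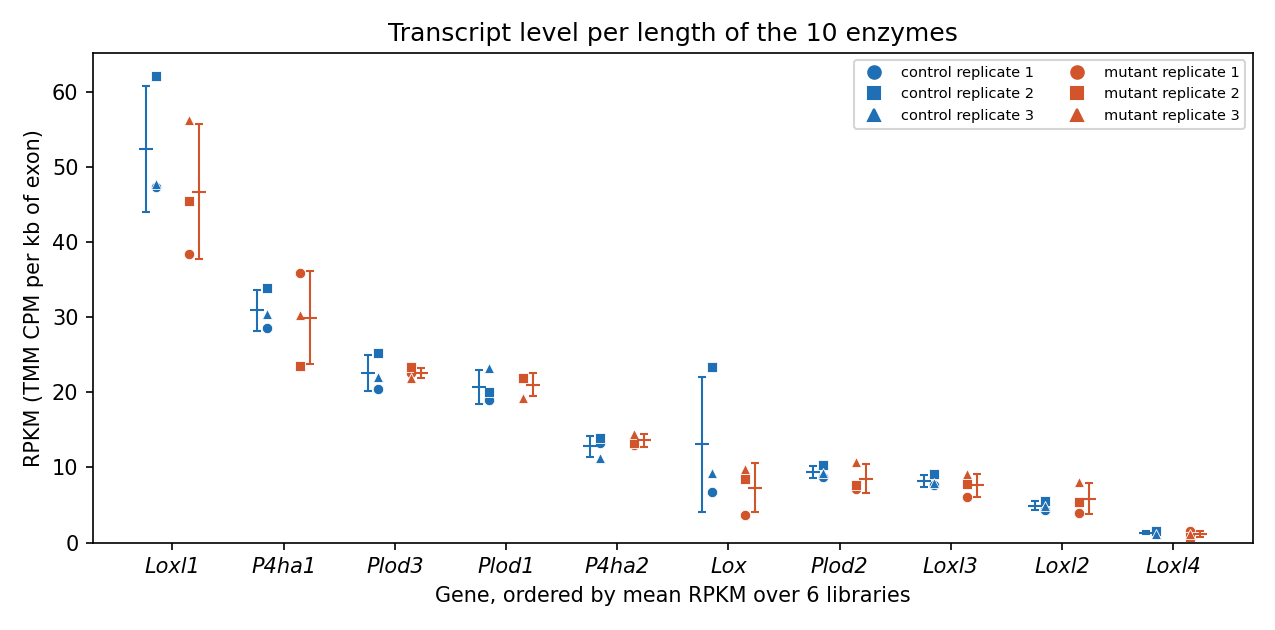
RPKM of the 10 enzymes (linear axis) in the 6 libraries, ordered by mean level, with controls in blue and mutants in orange and bars for the mean and SD of each group of 3. Loxl1 lies above all other genes at 38.5 to 62.1 RPKM, and Lox has a single high library, control replicate 2, at 23.4 RPKM.

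Between mutants and controls, 0 of the 10 enzymes differed at an adjusted p under 0.05 in the edgeR quasi-likelihood test, where 0% of the 15354 genes tested did. At an unadjusted p under 0.05 the count was also 0 of 10, against 3.45% of all genes tested. DESeq2, run as an alternative, gave an adjusted p under 0.05 to 0 of the 10 enzymes and to 0.169% of all genes. In 0 of the 10 did every mutant lie on one side of every control, which held for 8.87% of all genes tested. Estimates were lower in the mutants for 6 enzymes and higher for 4, with a median log2 ratio of mutants to controls of -0.08, beside 0.01 over all genes tested, of which 47.8% had a lower estimate. When a library was left out, the median ran from -0.11 without control replicate 1, with 8 lower and 2 higher, to -0.01 without control replicate 2, with 6 lower and 4 higher. The adjusted p from edgeR was 0.999 for 9 of the enzymes and 1.000 for Plod3.

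Lox, the founding lysyl oxidase, which lies on chromosome 18 (positions here refer to GRCm38, or mm10), varied most among the 10. Control replicates 1, 2 and 3 held 32.0, 112 and 44.0 CPM of Lox, and mutant replicates 1, 2 and 3 held 17.4, 40.2 and 47.1 CPM. Control replicate 2 stood far above the rest and mutant replicate 1 below the rest, while the other 4 libraries mixed, so that the groups overlapped. Means were 62.6 ± 43.0 CPM (SD, n = 3) and 34.9 ± 15.5 CPM (SD, n = 3) for controls and mutants, and the highest library held 6.42 times the level of the lowest. Its log2 ratio was -0.84 (standard error, SE, 0.54, 95% confidence interval -2.12 to 0.43, adjusted p = 0.999 from edgeR). Without control replicate 2 it was -0.12, and the 6 fits that each left out a library ran from -1.16 to that value.

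Loxl1 (chromosome 9, 58287738 to 58313186) was read, in the order of the replicates here and in what follows, at 156, 205 and 157 CPM in the controls and 127, 150.1 and 185 CPM in the mutants. Control replicate 2 was again the highest, mutant replicates 1 and 2 lay below every control, and mutant replicate 3 lay above control replicates 1 and 3. The log2 ratio of Loxl1 was -0.17 (SE 0.18, 95% confidence interval -0.59 to 0.26), and -0.02 without control replicate 2. Loxl2 (chromosome 14, 69609068 to 69695834), which crosslinks collagen IV of basement membranes among other substrates, was read at 23.7, 30.1 and 26.2 CPM in the controls and 21.4, 29.5 and 43.4 CPM in the mutants. Mutant replicate 3 alone lay above all controls and mutant replicate 1 lay below them. The log2 ratio of Loxl2 was 0.24 (SE 0.25, 95% confidence interval -0.36 to 0.83), and it turned to -0.07 without mutant replicate 3. With markers of smooth muscle as a covariate, added after the data were seen, it was 0.67 (unadjusted p = 0.0184, adjusted p = 0.866 from edgeR).

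Loxl3 and Loxl4, the other lysyl oxidases of the family, also had overlapping groups. Loxl3 (chromosome 6, 83034173 to 83052562) was read at 35.1, 41.8 and 36.3 CPM in the controls and 27.8, 35.7 and 41.7 CPM in the mutants. Mutant replicate 1 was the lowest library, and mutant replicate 3 stood beside control replicate 2 at the top. For Loxl3 the log2 ratio stood at -0.11 (SE 0.17) and at 0.04 without mutant replicate 1. Its exons share 535 bases with Htra2 on the opposite strand, and since the counting is not stated to use strand, fragments from that stretch cannot be assigned to either gene. Loxl4 (chromosome 19, 42593982 to 42612813) rested on 135 to 341 counts per library. It was read at 5.78, 6.24 and 4.63 CPM in the controls and at 6.58, 3.41 and 4.92 CPM in the mutants, so that the mutants held both the highest and the lowest value. Loxl4 gave a log2 ratio of -0.16 (SE 0.29), which was -0.41 after mutant replicate 1 was removed and 0.05 after mutant replicate 2 was.

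**Figure D2:**
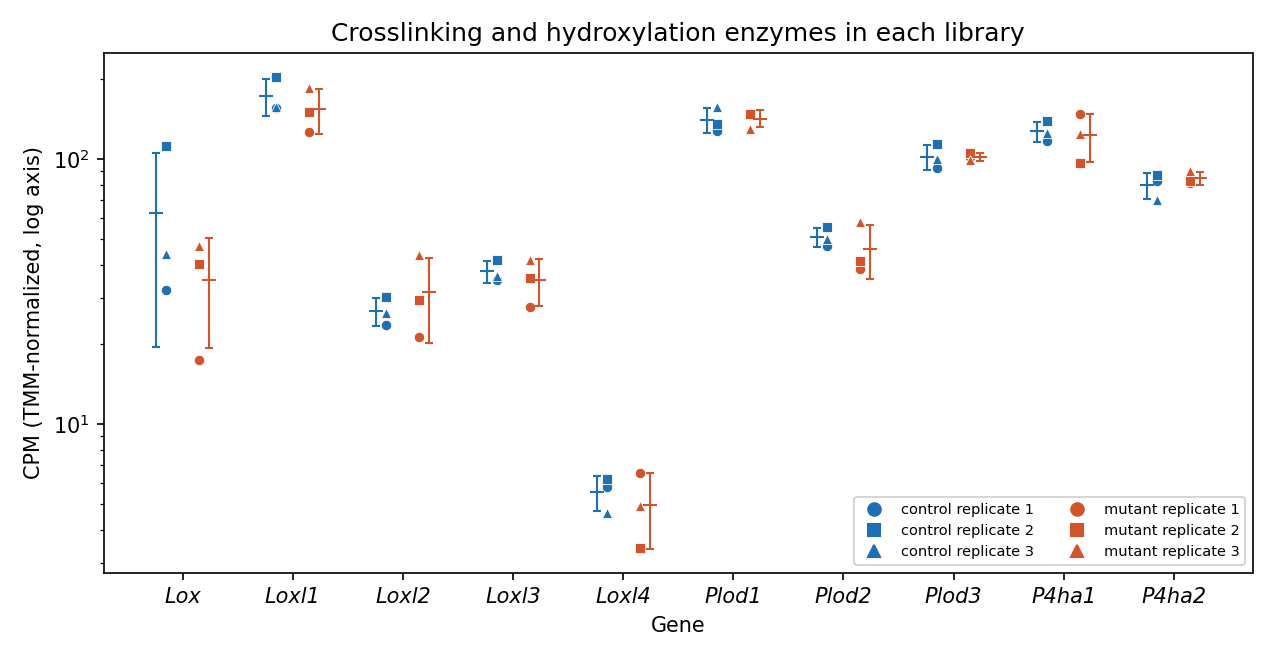
CPM of the 10 enzymes in each library (log axis), with controls in blue, mutants in orange, a symbol for each replicate number and bars for the mean and SD of each group of 3. In all 10 genes the groups overlap, and control replicate 2 (blue square) is the highest control in 9 of them.

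As a share of the summed RPKM of the 5 lysyl oxidases, Loxl1 made up 66.3 ± 4.67% (SD, n = 3) in the controls and 68.4 ± 2.81% (SD, n = 3) in the mutants. The share of Loxl2 was 6.51%, 5.48% and 6.86% for the controls, and for the mutants 7.38%, 8.03% and 9.52%. Loxl2 was singled out after the values were seen: of 11 shares computed within the 3 enzyme families, its share alone separated the groups, being higher in every mutant, which is near the 8.87% of genes tested whose levels separated them. Its own level overlapped between the groups, and the share also moves with Lox and Loxl1 in its denominator.

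Among the lysyl hydroxylases, Plod1 and Plod3 had a coefficient of variation over the 6 libraries of 8.26% and 7.09%, below each lysyl oxidase, while that of Plod2, 15.9%, lay between those of Loxl3 and Loxl1. Plod1 (chromosome 4, 147909753 to 147936767), which hydroxylates lysines of the helical part of collagen, was read at 128, 136 and 157 CPM in the controls and 149, 148 and 130.3 CPM in the mutants. The mutants lay inside the range of the controls. The log2 ratio of Plod1 was 0.02 (SE 0.12, 95% confidence interval -0.26 to 0.30), which corresponds to a ratio of mutants to controls between 0.838 and 1.23. Plod3 (chromosome 5, 136987019 to 136996648), which also transfers sugars to hydroxylysine, was read at 92.3, 114 and 99.8 CPM in the controls and 102, 105 and 98.9 CPM in the mutants. Controls averaged 102 ± 11.0 CPM (SD, n = 3), beside 102 ± 3.26 CPM (SD, n = 3) for the mutants. The 95% confidence interval of its log2 ratio, -0.25 to 0.25, leaves ratios between 0.842 and 1.19. In the annotation, Plod3 shares 529 exonic bases with Znhit1 on the opposite strand, with the same limit as for Loxl3. Opposite-strand transcripts of unknown function also overlap Loxl2 by 301 bases and Plod2 by 346 bases.

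Plod2 (chromosome 9, 92542223 to 92608428) encodes the lysyl hydroxylase of the collagen telopeptides, which directs crosslinks toward the pyridinoline type found in cartilage, bone and fibrotic tissue. It was read at 47.0, 55.6 and 49.8 CPM in the controls and 38.4, 41.1 and 57.8 CPM in the mutants. Mutant replicates 1 and 2 lay below every control and mutant replicate 3 above every control. The log2 ratio of Plod2 was -0.15 (SE 0.17, 95% confidence interval -0.56 to 0.25). Without mutant replicate 3 it was -0.35 (SE 0.12, unadjusted p = 0.0285, adjusted p = 0.999 from edgeR). The ratio of Plod2 to Plod1 counts was 0.367, 0.410 and 0.317 in the controls and 0.259, 0.278 and 0.443 in the mutants, again with mutant replicate 3 on the other side of the controls from the rest.

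P4ha1 and P4ha2 encode the main catalytic subunits of prolyl 4-hydroxylase and are known as genes induced by low oxygen through the hypoxia-inducible factors, which bind a core of ACGTG. The RefSeq table of promoters (build GRCm38.p6) held 5 of the 10 genes. ACGTG, searched on both strands in the 250 bases before the start of each gene, was found in 3 of these 5 (Plod3, P4ha1 and P4ha2) and not in Plod1 or Loxl4, while 16.6% of 32851 promoter windows of this length held it. A match describes these letters and not a bound site. The windows of both prolyl hydroxylase genes are shown because hypoxia-responsive genes are compared with them here. They lie on the + strand at chr10:59323046-59323295 for P4ha1, with a match 16 bases before the start on the opposite strand, and at chr11:54100674-54100923 for P4ha2, with a match 78 bases before the start on the gene's strand. Neither window holds an annotated exon, and that of P4ha2 lies in an intron of a longer GENCODE transcript of the gene that starts upstream. Capitals mark the match, and the sequences run 5′ to 3′.
P4ha1: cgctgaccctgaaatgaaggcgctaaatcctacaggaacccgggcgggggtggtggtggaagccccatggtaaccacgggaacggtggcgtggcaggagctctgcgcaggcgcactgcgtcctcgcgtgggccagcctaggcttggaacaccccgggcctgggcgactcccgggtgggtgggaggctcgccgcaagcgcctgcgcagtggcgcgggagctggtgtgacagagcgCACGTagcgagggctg
P4ha2: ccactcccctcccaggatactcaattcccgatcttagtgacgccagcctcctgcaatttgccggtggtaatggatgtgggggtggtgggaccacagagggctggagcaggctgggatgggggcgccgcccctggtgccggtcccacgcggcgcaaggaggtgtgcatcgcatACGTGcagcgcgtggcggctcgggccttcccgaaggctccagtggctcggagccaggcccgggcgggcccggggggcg

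P4ha1 (chromosome 10, 59323296 to 59373304) was read at 117, 139 and 125 CPM in the controls and 148, 96.9 and 125 CPM in the mutants. The mutants held both the highest and the lowest level. The log2 ratio of P4ha1 was -0.05 (SE 0.17, 95% confidence interval -0.44 to 0.34), and it turned to 0.03 without control replicate 2 and to 0.10 without mutant replicate 2. P4ha2 (chromosome 11, 54100095 to 54131665) was read at 82.8, 86.9 and 69.9 CPM in the controls and 81.0, 82.9 and 90.5 CPM in the mutants. Only mutant replicate 3 lay above every control and only control replicate 3 below every mutant. P4ha2 had an estimated log2 ratio of 0.09 (SE 0.11, 95% confidence interval -0.18 to 0.35). P4ha1 counts exceeded P4ha2 counts in every library, by a ratio of 1.60 ± 0.186 (SD, n = 3) in the controls and 1.46 ± 0.335 (SD, n = 3) in the mutants, and these ratios overlapped. By RPKM the third alpha subunit, P4ha3, made up 4.18 ± 1.07% (SD, n = 3) of the 3 subunits in the controls and 2.76 ± 1.12% (SD, n = 3) in the mutants. The shares of P4ha3 overlapped between the groups.

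**Figure D3:**
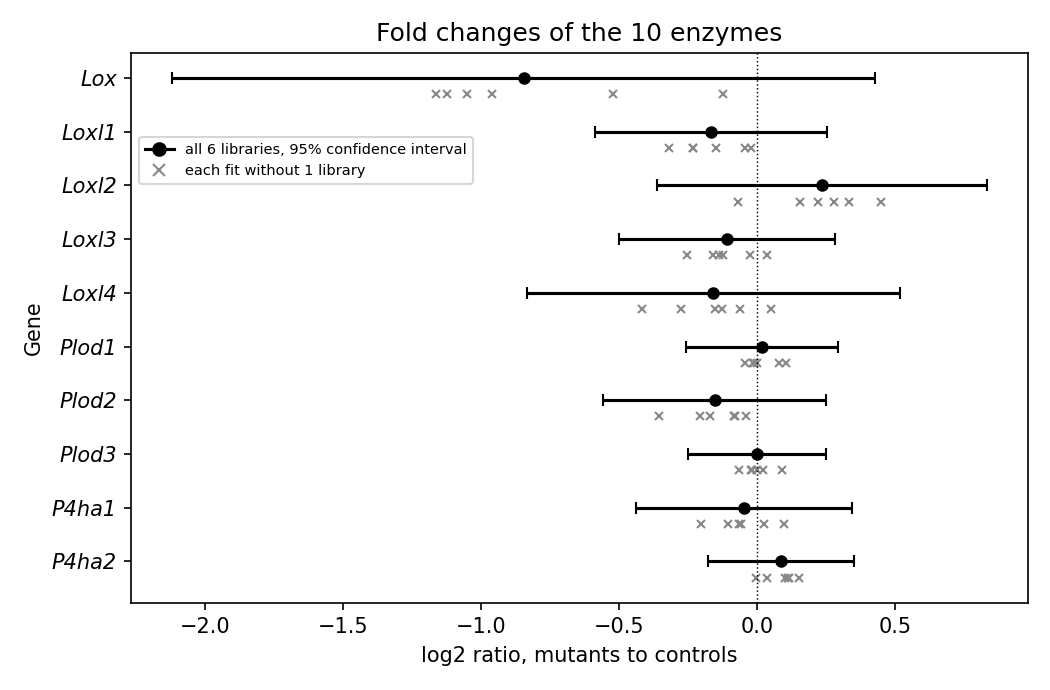
Log2 ratios of the 10 enzymes, mutants to controls, with 95% confidence intervals (black) and the 6 estimates that each left out a library (grey crosses). Every interval includes 0, and Lox has the widest, from -2.12 to 0.43.

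Lox had its highest and lowest library in common with Eln, which encodes elastin, a substrate of the lysyl oxidases, and with the summed smooth muscle markers. Eln was read at 1048, 2554 and 1285 CPM in the controls and 527, 1539 and 966 CPM in the mutants. The summed level of the 7 smooth muscle markers was 7734, 13917 and 6887 CPM in the controls and 3816, 6431 and 7010.2 CPM in the mutants. All 3 measures were highest in control replicate 2 and lowest in mutant replicate 1, and how many of all genes share this order was not tested. Of the 7 markers, which include Acta2 and Myh11, 7 were read above 0 in every library and 6 had a lower estimate in the mutants. In 3 of the 7 every mutant lay below every control, beside 4.83% of all genes tested, and their median log2 ratio was -0.88. Des, also on the list, ran otherwise, at 1661, 510 and 993 CPM in the controls and 1588, 834 and 1007 CPM in the mutants. Cardiac muscle markers had their lowest sum in control replicate 2 and their highest in mutant replicate 1.

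When a score of the smooth muscle markers was a covariate, the log2 ratio of Lox turned to 0.41 (adjusted p = 0.884 from edgeR), and with the cardiac muscle marker score it was -0.40 (adjusted p = 0.999 from edgeR). Most smooth muscle markers were themselves lower in the mutants. Fits with this score, here and in the other comparisons, therefore cannot separate genotype from the score. In whole valve tissue, fewer cells of a type and less RNA per cell cannot be told apart. With the smooth muscle score 3 of the 10 estimates were lower and 7 higher, with a median of 0.14. Under either covariate, 0 of the 10 enzymes had an adjusted p under 0.05. Macrophage markers, of which 7 of 7 had a higher estimate in the mutants and none was at 0, summed to 1276 to 1425 CPM in the controls and 1689 to 1842 CPM in the mutants, and their part in the values of the enzymes was not tested.

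**Figure D4:**
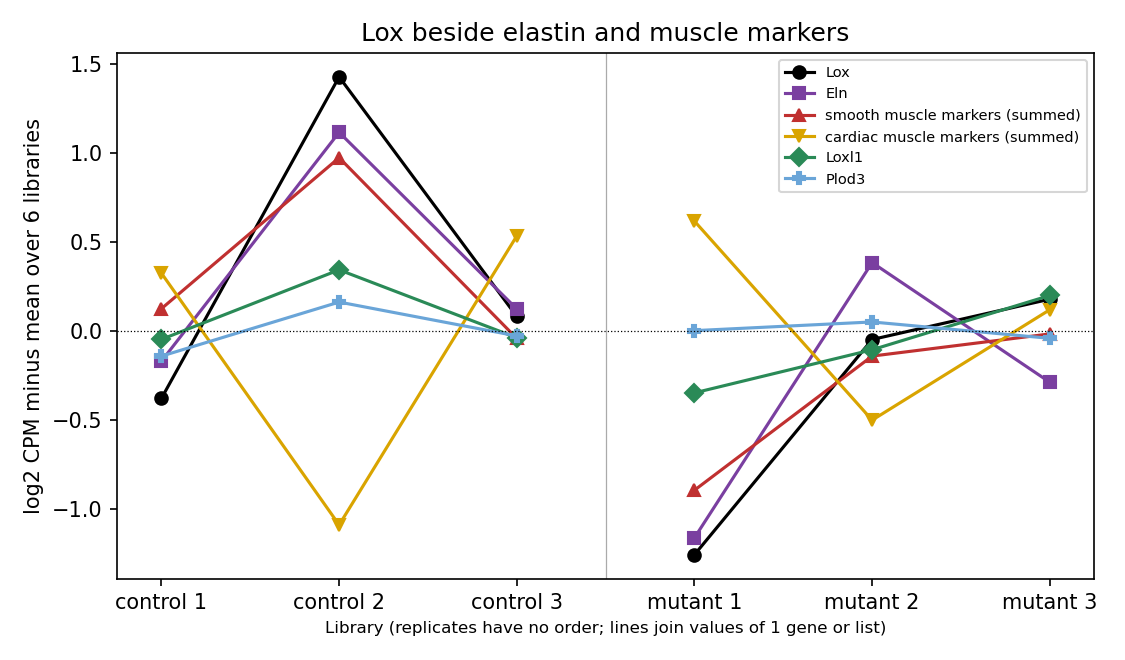
Log2 CPM minus the mean over the 6 libraries for Lox, Eln, Loxl1, Plod3 and the summed smooth and cardiac muscle markers, by library. Lox, Eln and the summed smooth muscle markers peak in control replicate 2 and are lowest in mutant replicate 1, the libraries where the summed cardiac muscle markers are at their lowest and highest, and Plod3 stays near 0 throughout.

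The standard deviation of log2 CPM over the 6 libraries placed Lox above 91.4% of the genes tested. Plod3, Plod1 and P4ha2 lay at the other end, with a standard deviation above that of 11.7%, 17.1% and 19.9% of genes. Control replicate 2 was the highest control for 9 of the 10 enzymes, Plod1 being the exception, and for 39.2% of all genes tested. Among the mutants, replicate 1 was lowest and replicate 3 highest for 6 enzymes (Lox, Loxl1, Loxl2, Loxl3, Plod2 and P4ha2), an arrangement found in 17.4% of all genes. Both arrangements were named from the values of these enzymes, which share the same 6 libraries, and neither was tested. The values describe those libraries.

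Likeness between profiles was measured as the root mean square difference of centred log2 CPM over the 6 libraries. Loxl1, Loxl3 and Plod2 lay close together. From Loxl1, Loxl3 was the 15th nearest (difference 0.069) and Plod2 the 45th nearest (difference 0.086) of 15353 other genes. The nearest of all to Loxl1 were Scpep1, Rbms3 and Ecm1, at 0.042 to 0.057. The profile of Lox had a larger amplitude, with a standard deviation of 0.795 beside 0.221 for Loxl1, although both were highest in control replicate 2 and lowest in mutant replicate 1. Loxl1 was at 0.595 from Lox, with 5.93% of genes nearer to Lox. The genes nearest to Lox were Scube3, Nov and Aplp1, at 0.140 to 0.149. From Loxl4, P4ha1 was the 48th nearest gene at 0.168, but from P4ha1, Loxl4 was the 910th nearest. The gene nearest to P4ha1 itself was Col5a3, a chain of collagen V, at 0.047. Genes with little variation are close to many others on this measure, so that these distances rank genes and carry no test.

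The substrates of these enzymes were followed through 11 genes of fibrillar collagens, basement membrane collagen and elastin. Of the 11, 10 had a lower estimate in the mutants, with a median log2 ratio of -0.24, and 0 had an adjusted p under 0.05 in edgeR. With the smooth muscle score as a covariate the tally was 6 lower and 5 higher, with a median of -0.01. It stayed at 10 lower and 1 higher with the cardiac muscle score, with a median of -0.16, and without control replicate 2, with a median of -0.19. Other libraries left out gave from 8 lower and 3 higher without mutant replicate 1 (median -0.16) to 11 lower and 0 higher without mutant replicate 3 (median -0.36). Col1a1 and Col1a2, the chains of collagen I, were estimated at a log2 ratio of -0.16 (SE 0.21) and -0.24 (SE 0.20). Col1a1 was highest in control replicate 3, at 1640 CPM, beside 1165 and 1296 CPM in control replicates 1 and 2 and 1042 to 1395 CPM in the mutants. Col3a1, the chain of collagen III, was read at 2478, 4151 and 3072 CPM in the controls and 2276, 2901 and 2895 CPM in the mutants, with a log2 ratio of -0.27 (SE 0.28) that was -0.04 without control replicate 2. That library was the highest control for 8 of the 11 substrates.

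Groups did not overlap for 1 of the 11 substrates, Col4a1, a share near the 8.87% of all genes tested. Col4a1 encodes a chain of collagen IV and was read at 535, 845 and 693 CPM in the controls and 437, 531 and 529 CPM in the mutants. The log2 ratio of Col4a1 was -0.47 (SE 0.20, unadjusted p = 0.0540, adjusted p = 0.999 from edgeR), -0.30 without control replicate 2, -0.18 with the smooth muscle score as a covariate and -0.37 with the cardiac muscle score (unadjusted p = 0.0327, adjusted p = 0.999 from edgeR). Its partner chain Col4a2 was read at 250, 412 and 309 CPM in the controls and 205, 246 and 266 CPM in the mutants, control replicate 2 being the highest library. Col4a2 had a log2 ratio of -0.44 (SE 0.21), of -0.08 with the smooth muscle score and of -0.32 with the cardiac muscle score (unadjusted p = 0.0485, adjusted p = 0.999 from edgeR). For Eln the value was -0.69 (SE 0.48), and it was -0.20 without control replicate 2, turned to 0.29 with the smooth muscle score and was -0.43 with the cardiac muscle score. For Col5a1, Col5a2 and Col5a3 of collagen V the values were -0.12, -0.07 and -0.08, each within its standard error. Col11a1 was read at 0.928 to 10.9 CPM in the controls and 1.54 to 3.08 CPM in the mutants. Col2a1, the collagen of cartilage, was read at 0.0198 to 2.35 CPM in the controls and at 0 to 1.57 CPM in the mutants, too low and uneven to give a direction.

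Set against their substrates, the enzymes showed no separation. For each of the 10 enzymes, the number of counts per 1000 counts of Col1a1 and per 1000 counts of Col3a1 was computed in every library. In 0 of these 20 ratios did the groups separate, beside 8.87% of all genes tested whose levels separated them. Such ratios were not computed for other genes, so that this count cannot tell the enzymes from other genes. Lox stood at 27.5, 86.3 and 26.8 counts per 1000 of Col1a1 in the controls and at 16.7, 32.6 and 33.7 in the mutants. Loxl1 stood at 134, 158 and 95.9 in the controls and at 122, 122 and 133 in the mutants. The controls spread more widely than the mutants in both.

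Of 23 other genes of collagen biosynthesis, which cover the remaining hydroxylase subunits, chaperones, glycosyltransferases and procollagen proteinases, 22 were tested. An adjusted p under 0.05 was found for 0 in edgeR, and an unadjusted one for 0, where 0% and 3.45% of all genes tested passed. Their estimates were lower in the mutants for 13 and higher for 9, with a median log2 ratio of -0.03, and that tally turned to 7 lower and 15 higher with the smooth muscle score and to 8 lower and 14 higher without control replicate 2, and stayed at 13 lower and 9 higher with the cardiac muscle score. For the beta subunit P4hb, controls averaged 661 ± 43.9 CPM (SD, n = 3) and mutants 668 ± 41.4 CPM (SD, n = 3). Serpinh1, the collagen chaperone also called Hsp47, had a log2 ratio of 0.03 (SE 0.22). Tll2, a procollagen proteinase, was at or near 0 counts and was not tested.

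In 2 of the 22 every mutant lay below every control, beside 4.83% of all genes tested, and in 0 did every mutant lie above. P4ha3 was read at 5.39, 5.04 and 7.36 CPM in the controls and 3.91, 4.80 and 2.57 CPM in the mutants. For P4ha3 the log2 ratio was -0.65 (SE 0.30, unadjusted p = 0.0637, adjusted p = 0.999 from edgeR), from -0.87 to -0.44 when a library was left out. Leprel1, the older symbol of P3h2, a prolyl 3-hydroxylase, was read at 25.1, 24.0 and 26.5 CPM in the controls and 22.3, 21.6 and 18.9 CPM in the mutants. For Leprel1 the log2 ratio was -0.27 (SE 0.11, unadjusted p = 0.0513, adjusted p = 0.999 from edgeR). For both genes the exact permutation test, two-sided, gave p = 0.1, the smallest that 3 libraries against 3 allow.

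Several hydroxylases and lysyl oxidases are textbook targets of the hypoxia-inducible factors, and 18 other genes known to respond to low oxygen were therefore set beside them. Of the 18, 0 had an adjusted p under 0.05 and 3 had an unadjusted p under 0.05 in edgeR, 2 of them higher and 1 lower in the mutants, where 3.45% of all genes tested passed the unadjusted threshold. Estimates were higher for 11 and lower for 7, with a median log2 ratio of 0.08. This tally turned to 6 higher and 12 lower with the smooth muscle score, with a median of -0.14, and was 9 and 9 with the cardiac muscle score and without control replicate 2. In 3 of the 18 every mutant lay above every control, beside 4.04% of all genes tested, and in 1 every mutant lay below, beside 4.83%.

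Egln3, a prolyl hydroxylase that marks the hypoxia-inducible factors for degradation, was read at 21.9, 16.1 and 20.9 CPM in the controls and 32.5, 25.6 and 27.9 CPM in the mutants. For Egln3 the log2 ratio was 0.55 (SE 0.16, unadjusted p = 0.0112, adjusted p = 0.999 from edgeR), 0.42 without control replicate 2, 0.28 with the smooth muscle score as a covariate and 0.47 with the cardiac muscle score (unadjusted p = 0.00340, adjusted p = 0.997 from edgeR). Bnip3, a mitophagy receptor, was read at 172, 111 and 171 CPM in the controls and 237, 189 and 236 CPM in the mutants, with a log2 ratio of 0.55 (SE 0.20, unadjusted p = 0.0277 from edgeR). Without control replicate 2, in which its level was lowest, the value for Bnip3 was 0.37, and it was 0.29 with the smooth muscle score and 0.45 with the cardiac muscle score (unadjusted p = 0.00126, adjusted p = 0.997 from edgeR). Ankrd37 had a log2 ratio of 0.40 (SE 0.24), which was 0.12 with the smooth muscle score and 0.32 with the cardiac muscle score. Adm, which encodes the vasodilator adrenomedullin, was read at 29.4, 39.2 and 27.0 CPM in the controls and 26.5, 22.3 and 23.4 CPM in the mutants, with a log2 ratio of -0.41 (SE 0.17, unadjusted p = 0.0450 from edgeR) that was -0.22 without control replicate 2.

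The collagen hydroxylases among the 10 enzymes, P4ha1, P4ha2, Plod1, Plod2 and Plod3, had estimates between -0.15 and 0.09, with overlapping groups in all 5. Differences between these genes and Egln3 or Bnip3 were not tested.

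**Figure D5:**
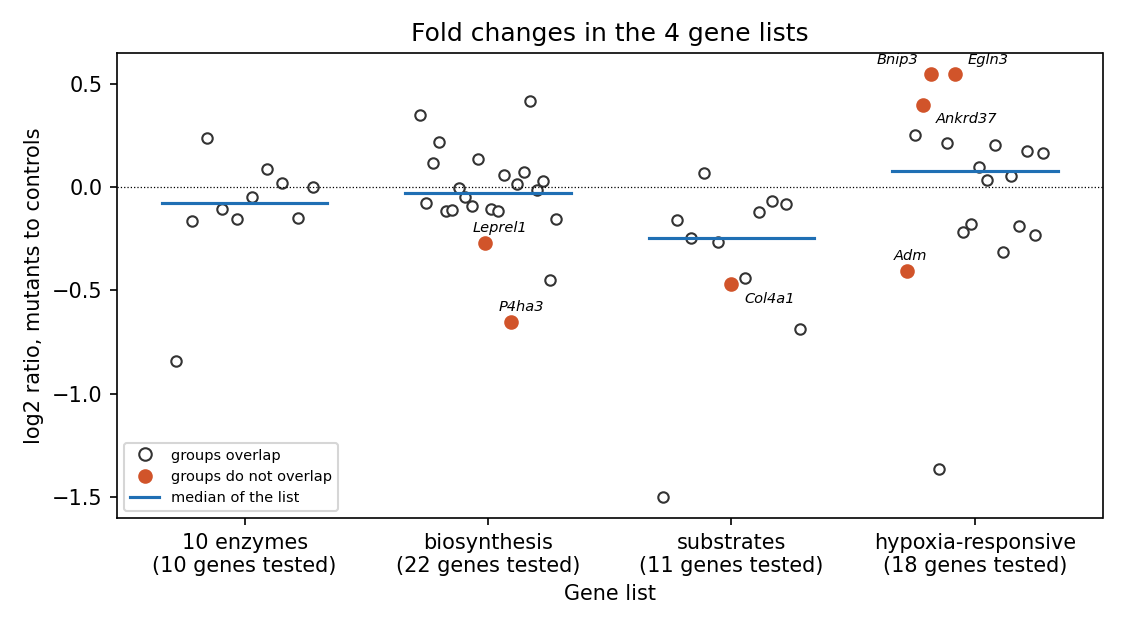
Log2 ratios, mutants to controls, of the 10 enzymes, the 22 biosynthesis genes, the 11 substrates and the 18 hypoxia-responsive genes tested, with blue lines for list medians and filled orange points for genes whose groups did not overlap. None of the 10 enzymes is filled, and the substrates have the lowest median, at -0.24.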

How the data were processed

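Aortic valve RNA of 3 control and 3 mutant samples was sequenced by the authors. Per the submitters' processing notes, the tools were Bowtie2 2.2.1, TopHat2 2.0.13, Cufflinks and Cuffdiff 2.1.1 with the mm10 build. The methods of the study give another Bowtie2 version. The values deposited by the authors are estimated counts, the fragments assigned to each gene, not scaled for library size. Each column was matched to its sample by the sample description, and 1.66% to 1.87% of values per library, which were not whole, were rounded.

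The analysis used edgeR 4.0.16 under R 4.3.3. A gene entered it with 10 or more counts in 3 or more of the 6 libraries, which left 15354 genes, all fitted together. Libraries were scaled with TMM, and mutants were tested against controls with the two-sided quasi-likelihood F test and no covariate. P-values were adjusted by Benjamini-Hochberg across these genes, and the threshold was 0.05. The standard error of a log2 ratio was derived from the ratio and F, and its 95% interval from the degrees of freedom of the model. Cuffdiff needs aligned reads and was not run. Positions and exon lengths came from GENCODE M21 (GRCm38), in which 89.8% of symbols were matched. The members and gene lists were chosen with earlier results of these data known. By the rule for named genes, the text names the 10 enzymes, the 11 substrates, the members of the biosynthesis and hypoxia lists with the smallest p among those whose groups did not overlap (up to 3 per direction), and the nearest genes by profile. P4hb, Serpinh1 and Tll2 were named in addition.

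As alternatives, DESeq2 1.42.0 and limma-voom (limma 3.58.1, also with weights for sample quality) replaced edgeR, and upper-quartile scaling replaced TMM. The filter was dropped or set to a mean count of 100, the replicate number entered as a block and marker scores as covariates, and each library was left out in turn. Simulated counts with known differences were used to test the scripts. No pair of libraries was alike within sampling noise. Marker lists of 12 cell types were summed as CPM.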

Additional observations from a re-analysis of the deposited data

How the results depend on the processing

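The 10 enzymes were fitted under 15 alternatives each. In 130 of these 150 fits the direction was kept and in 20 it turned, and the lowest adjusted p was 0.901 under the alternatives planned and 0.866 with the smooth muscle score, which was added after the data were seen. With that score as a covariate the log2 ratio turned to 0.41 for Lox, 0.18 for Loxl1, 0.20 for Loxl3, 0.10 for Plod2 and -0.0724 for Plod1. Plod1 turned to -0.0366 under limma-voom with sample quality weights, and Plod3 to -0.00081 without a filter on low counts. The cause of these turns was not tested, and each of these estimates had an interval that included 0 in the edgeR fit.

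When each library was left out in turn, the log2 ratio ran from -1.16 to -0.12 for Lox, -0.32 to -0.02 for Loxl1, -0.0682 to 0.45 for Loxl2, -0.25 to 0.0353 for Loxl3, -0.41 to 0.0529 for Loxl4, -0.0419 to 0.11 for Plod1, -0.35 to -0.04 for Plod2, -0.0661 to 0.0910 for Plod3, -0.20 to 0.10 for P4ha1 and -0.0025 to 0.15 for P4ha2. The numbers of enzymes, biosynthesis genes, hypoxia-responsive genes and genes overall with an adjusted p under 0.05 stayed at 0 in these 6 fits. Over all genes the edgeR count of 0 became 26 with DESeq2 and 529 at an unadjusted p under 0.05. At that unadjusted threshold 3 hypoxia-responsive genes passed, and 0 of the enzymes and biosynthesis genes did.

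The replicate numbers of the labels were tested as a block. Deviations from the group means correlated at 0.254, 0.0511 and 0.0370 between libraries of the same number, so that the numbers were not taken to pair the libraries, and not every library correlated best with its own number. With the replicate block 0 genes had an adjusted p under 0.05, as without it, and the log2 ratio of Lox was -0.76. With 3 libraries a group, the interval of Lox allows ratios from 0.230 to 1.35, and that of Loxl4, the enzyme with the fewest counts, from 0.561 to 1.43.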

Other observations

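The summed levels of the other cell type markers belong to no comparison of the enzymes and are given as values. T cell markers were low, with a summed level of 2.08 to 5.42 CPM in the controls and 5.77 to 9.91 CPM in the mutants, and B and plasma cell markers summed to 3.63 to 15.2 CPM and 6.94 to 35.8 CPM. Endothelial markers overlapped, at 1644 to 2586 CPM in the controls and 1936 to 2238 CPM in the mutants. Red blood cell markers summed to 2777 to 10267 CPM and 1317 to 9043 CPM, with Hba-a1 and Hba-a2 at 0 in some library. Hba-a1 was at 0 in control replicate 3 and mutant replicate 3, where Hba-a2 stood at 2697 and 3566 CPM. In the other libraries Hba-a2 was at or near 0 and Hba-a1 stood at 881 to 7396 CPM. How fragments were divided between these genes was not tested. Fat cell markers summed to 527 to 1397 CPM and 397 to 1065 CPM. Cartilage markers summed to 234 to 452 CPM in the controls and 268 to 409 CPM in the mutants. Of these 7 genes, Col2a1, Matn3 and Col10a1 were at 0 in some library. Acan, at 3.53 to 20.8 CPM, Col9a1, at 1.98 to 9.27 CPM, Comp and Hapln1 were read in all 6 libraries. Melanocyte markers summed to 20.2 to 162 CPM and 61.1 to 181 CPM, and Schwann cell markers to 56.0 to 72.9 CPM and 47.5 to 67.6 CPM.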
